A study of Homo sapiens with 12 samples.

Results

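The transcripts of 8 genes of cholesterol and fatty acid synthesis were followed across 12 RNA-seq libraries of human pancreatic cancer cells. The 8 genes were SREBF1, SREBF2, INSIG1, HMGCS1, IDI1, SQLE, FASN and SCD, and transcript abundances were summed to genes by their GENCODE symbols, which found all 8 among 39099 genes. The cells were AsPC-1 and PANC-1, established lines from pancreatic ductal carcinoma, and per the labels each line was a mock control or overexpressed (O/E) TAp63 or deltaNp63, forms of the transcription factor p63 made from different promoters of TP63. Each of the 6 groups held 2 libraries labelled as biological replicates. How the constructs were delivered, for how long the cells were grown and whether a group was 1 clone or a pool were not given in the sources used here, so p-values measure the spread between these libraries.

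Sterol regulatory element-binding proteins (SREBPs) are transcription factors made as precursors in the membrane of the endoplasmic reticulum. When sterols are scarce, the escort protein SCAP carries them to the Golgi, where proteases release the part that enters the nucleus, and when sterols are plentiful INSIG proteins hold SCAP back. SREBF2 encodes SREBP-2, which mainly drives genes of cholesterol synthesis and sterol uptake, and SREBF1 encodes SREBP-1a and SREBP-1c, of which the latter mainly drives fatty acid genes. Since this control acts on protein processing, transcript levels of SREBF1 and SREBF2 are not a measure of SREBP activity.

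SREBPs bind sterol regulatory elements in promoters, usually next to sites for NF-Y (the CCAAT box) and Sp1 (the GC box). The sequences of 3 of the genes just before their first annotated start are shown. The choice was made because that of SREBF2 holds a match to the core letters of the element, while HMGCS1 and SCD had opposite estimates in AsPC-1. They are RefSeq promoter windows of GRCh38.p14, written 5′ to 3′ on the strand of the gene, at chr22:41832855-41833104 (plus strand), chr5:43313513-43313662 (minus strand) and chr10:100346983-100347232 (plus strand). Capitals mark CACCCCAC (the core of the sterol regulatory element), CCAAT and GGGCGG on either strand.
SREBF2: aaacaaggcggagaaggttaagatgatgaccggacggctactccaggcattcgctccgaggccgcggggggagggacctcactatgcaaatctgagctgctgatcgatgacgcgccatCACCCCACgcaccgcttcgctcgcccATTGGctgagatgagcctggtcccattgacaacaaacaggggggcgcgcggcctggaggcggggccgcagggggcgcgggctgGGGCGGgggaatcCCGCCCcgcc
HMGCS1: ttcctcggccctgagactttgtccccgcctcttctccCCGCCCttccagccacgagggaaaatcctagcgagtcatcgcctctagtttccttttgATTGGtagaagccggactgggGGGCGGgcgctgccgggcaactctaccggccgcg
SCD: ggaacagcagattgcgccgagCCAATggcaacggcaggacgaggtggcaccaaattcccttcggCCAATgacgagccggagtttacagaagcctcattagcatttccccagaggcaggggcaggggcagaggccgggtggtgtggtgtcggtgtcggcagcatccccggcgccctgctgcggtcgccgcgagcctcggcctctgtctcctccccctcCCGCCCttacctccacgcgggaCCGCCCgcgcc

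Windows of 250 bases before the start were matched for 6 of the 8 genes, SREBF1, SREBF2, INSIG1, HMGCS1, IDI1 and SCD. The SREBF2 window held CACCCCAC once and was the only window of the 6 to do so, where 2.43% of all 35116 promoter windows of that length held it. CCAAT occurred in 5 of the 6 windows, all but that of SREBF1, against 32.0% of all windows. GGGCGG occurred in all 6, against 42.6% of all windows, and a half-site of the p53 family occurred in the INSIG1 window alone, against 5.57%. These are matches of letters within the window and show no binding. Elements spelled otherwise or outside the window would be missed, so a window without CACCCCAC is not shown to lack a sterol regulatory element.

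TP63 itself lay between 0.0245 and 1.10 TPM (transcript abundance scaled so that a library sums to 1000000) in the 4 mock libraries, between 102 and 342 TPM in the 4 TAp63 libraries and between 245 and 1187 TPM in the 4 deltaNp63 libraries. All 5 epithelial markers examined reached 1 TPM, with summed levels of 7131 to 10554 TPM in AsPC-1 and 3483 to 3851 TPM in PANC-1. Of the markers of other cell types, LUM in AsPC-1, COL1A1 in PANC-1 and CD68 in both lines exceeded 1 TPM, at up to 288 TPM for LUM and CD68 and 111 TPM for COL1A1, while PTPRC, CD3E, CD14 and MS4A1 stayed below 1 TPM throughout. Replicate libraries differed by a median absolute log2 difference of 0.092 to 0.148 in 5 groups and of 0.211 in AsPC-1 deltaNp63. In that group replicate 1 held KRT8, a simple-epithelial keratin, at 2034 TPM and replicate 2 at 3609 TPM, while the other 4 AsPC-1 libraries held 3177 to 3738 TPM. Results in AsPC-1 with deltaNp63 are therefore also given without replicate 1. TPM keeps no read depth, so no counting error could be computed.

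All 8 genes passed the filter on low values, at least 1 TPM in at least 2 libraries, and their lowest value in any library was 4.75 TPM. A gene is named as called where limma gave an adjusted p under 0.05 across 14767 tested genes on the log2(TPM + 1) scale. The fit takes 1 spread per gene from the replicates of all 6 groups. SEs and intervals within 1 line therefore also reflect the replicates of the other line. Whether the libraries of 2 groups overlap is given as a description, as the share of all tested genes without overlap was not counted. The plot of TPM by library shows all values.

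**Figure D1:**
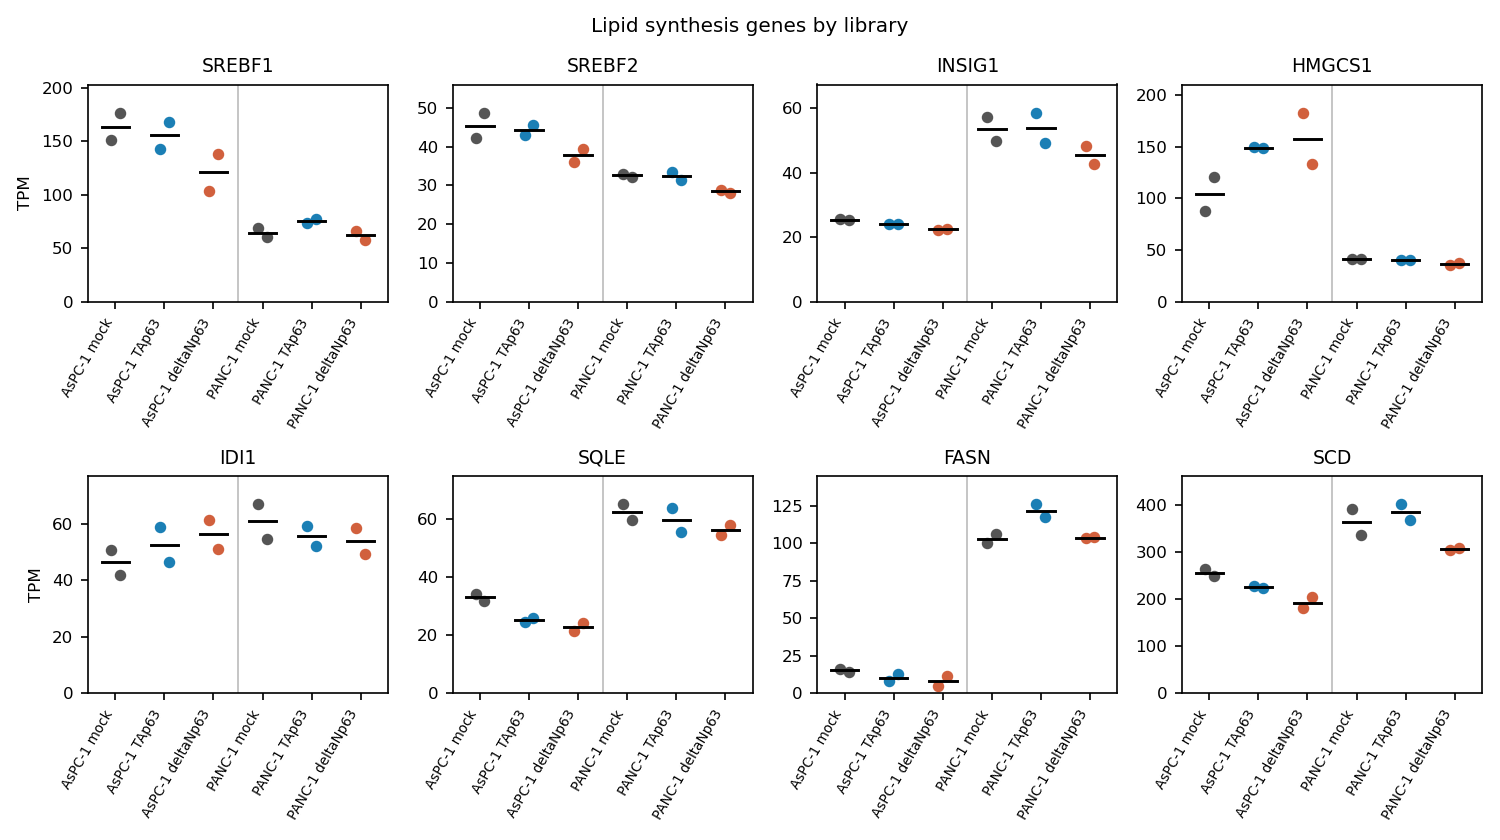
Transcript abundance in TPM (vertical axes, each from 0) of the 8 genes in the 12 libraries, by cell line and construct; points are libraries and bars group means of 2. FASN in PANC-1 lies between 99.9 and 126 TPM, above all AsPC-1 libraries at 4.75 to 16.3 TPM, and HMGCS1 shows the opposite order of the lines.

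The 2 cell lines differed in the control state for most of these genes. In mock cultures 4 of the 8, FASN, INSIG1, SQLE and SCD, were higher in PANC-1, and 3, SREBF1, HMGCS1 and SREBF2, were lower there, so that 7 of 8 were called. Among all tested genes, 72.5% were called in this comparison, 44.6% higher and 27.9% lower in PANC-1, so the count for the 8 genes is near the background. The comparison is between 1 line and another, each with 2 libraries.

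Among the regulators, SREBF1 (ENSG00000072310, chromosome 17, 17810399 to 17837002, minus strand) stood at 151 and 177 TPM in the AsPC-1 mock libraries and at 68.4 and 60.001 TPM in the PANC-1 mock libraries. The lines did not overlap in any treatment, and the log2 difference, PANC-1 minus AsPC-1, was -1.34 (SE 0.150, limma adjusted p 2.00e-05). SREBF2 (ENSG00000198911, chromosome 22, 41833105 to 41907306, plus strand) was at 42.2 and 48.8 TPM in AsPC-1 mock and at 33.0 and 32.3 TPM in PANC-1 mock. Its difference was smaller, at -0.46 (SE 0.0953, limma adjusted p 0.00138). SREBF1 was the more abundant of the pair in every library, by 2.85 to 3.68 times in AsPC-1 and 1.86 to 2.45 times in PANC-1, as a ratio of TPM.

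INSIG1 (ENSG00000186480, chromosome 7, 155297776 to 155310235, plus strand), the anchor of SCAP and itself an SREBP target, went the other way. AsPC-1 mock libraries held 25.4 and 25.3 TPM and PANC-1 mock libraries 57.3 and 49.7 TPM, 2.06 times higher in PANC-1 (95% interval 1.74 to 2.44, limma adjusted p 1.18e-05). Its relative INSIG2 had the opposite order, with a log2 difference of -2.74.

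The 3 enzymes of the sterol branch did not share an order of the lines. HMGCS1 (ENSG00000112972, chromosome 5, 43287470 to 43313512, minus strand), the cytosolic HMG-CoA synthase of the mevalonate pathway, was at 88.2 and 121 TPM in AsPC-1 mock and at 41.1 and 41.5 TPM in PANC-1 mock. It was lower in PANC-1 by a log2 difference of -1.30 (SE 0.160, limma adjusted p 3.81e-05). SQLE (ENSG00000104549, chromosome 8, 124998497 to 125022283, plus strand), squalene epoxidase, which makes the first oxygenated intermediate of sterol synthesis, was at 34.3 and 31.8 TPM in AsPC-1 mock and at 65.2 and 59.8 TPM in PANC-1 mock, 1.87 times higher (limma adjusted p 2.34e-05). IDI1 (ENSG00000067064, chromosome 10, 1039152 to 1049119, minus strand), the isopentenyl diphosphate isomerase, was at 50.8 and 42.0 TPM against 67.1 and 54.9 TPM. Those groups did not overlap but the difference of 0.39 missed the threshold (limma adjusted p 0.0536). Among other settings, it passed without genes of means under 5 TPM (limma adjusted p 0.0429), without AsPC-1 mock replicate 1 (0.52, limma adjusted p 0.0405) and without PANC-1 mock replicate 2 (0.53, limma adjusted p 0.0398).

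The largest difference among the 8 was in FASN (ENSG00000169710, chromosome 17, 82078338 to 82098294, minus strand), the fatty acid synthase. AsPC-1 mock libraries held 16.3 and 14.2 TPM and PANC-1 mock libraries 99.9 and 106 TPM, 6.41 times higher in PANC-1 (95% interval 4.09 to 10.03, limma adjusted p 1.45e-05). SCD (ENSG00000099194, chromosome 10, 100347233 to 100364826, plus strand), the stearoyl-CoA desaturase that makes monounsaturated fatty acids, was the most abundant of the 8 in every library but AsPC-1 deltaNp63 replicate 1, where HMGCS1 was at 183 TPM and SCD at 181 TPM. In mock cultures it stood at 265 and 248 TPM in AsPC-1 and at 391 and 336 TPM in PANC-1, 1.41 times higher (95% interval 1.23 to 1.63, limma adjusted p 0.000685). FASN held 0.0263 to 0.0616 of the SCD level in AsPC-1 libraries and 0.255 to 0.339 in PANC-1 libraries.

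The order of the 6 groups followed the line more than the construct. For SREBF1, SREBF2 and HMGCS1 all 3 AsPC-1 groups lay above all 3 PANC-1 groups, and for INSIG1, SQLE, FASN and SCD the reverse held, with no library of one line inside the range of the other. IDI1 was the exception. Its 6 group means ran from 46.4 TPM in AsPC-1 mock to 61.0 TPM in PANC-1 mock, and each group overlapped its neighbour in the order.

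Genes of the wider pathway differed between the mock lines in both directions. Their counts stand beside 72.5% of all tested genes called, 44.6% higher and 27.9% lower in PANC-1. Of 21 cholesterol synthesis enzymes tested, 11 were higher in PANC-1, 4 were lower and 6 were not called, with a median log2 difference of 0.54 against 0.24 for all tested genes. The higher ones included NSDHL (1.71), which acts late in the pathway, ACAT2 (1.37) and LSS (1.37). The lower ones were HMGCS1, FDFT1 (-0.56), CYP51A1 (-0.38) and FDPS (-0.24). Of 23 genes of fatty acid synthesis and desaturation tested, 14 were higher in PANC-1 and 6 lower, among them FADS1 (5.22) and ME1 (2.99) upward, and ACSS2 (-2.13) and ELOVL6 (-1.92) downward.

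Of 10 genes of sterol uptake and transport, 5 were lower in PANC-1 and 3 higher. The lower ones included SCARB1 (-1.24), a receptor for HDL, and NPC1 (-0.45), which moves cholesterol out of lysosomes. SOAT1 (3.43), TMEM97 (2.88) and NPC2 (1.26) were higher in PANC-1. Of 10 genes of SREBP control, 3 were higher in PANC-1, among them UBE2G2 and INSIG1, and 4 lower (INSIG2, SREBF1, RNF139 and SREBF2). Of 5 genes of LXR signalling and cholesterol efflux, APOE was higher (7.43) and ABCG1 (-5.16) and NR1H3 (-3.70) were lower.

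**Figure D2:**
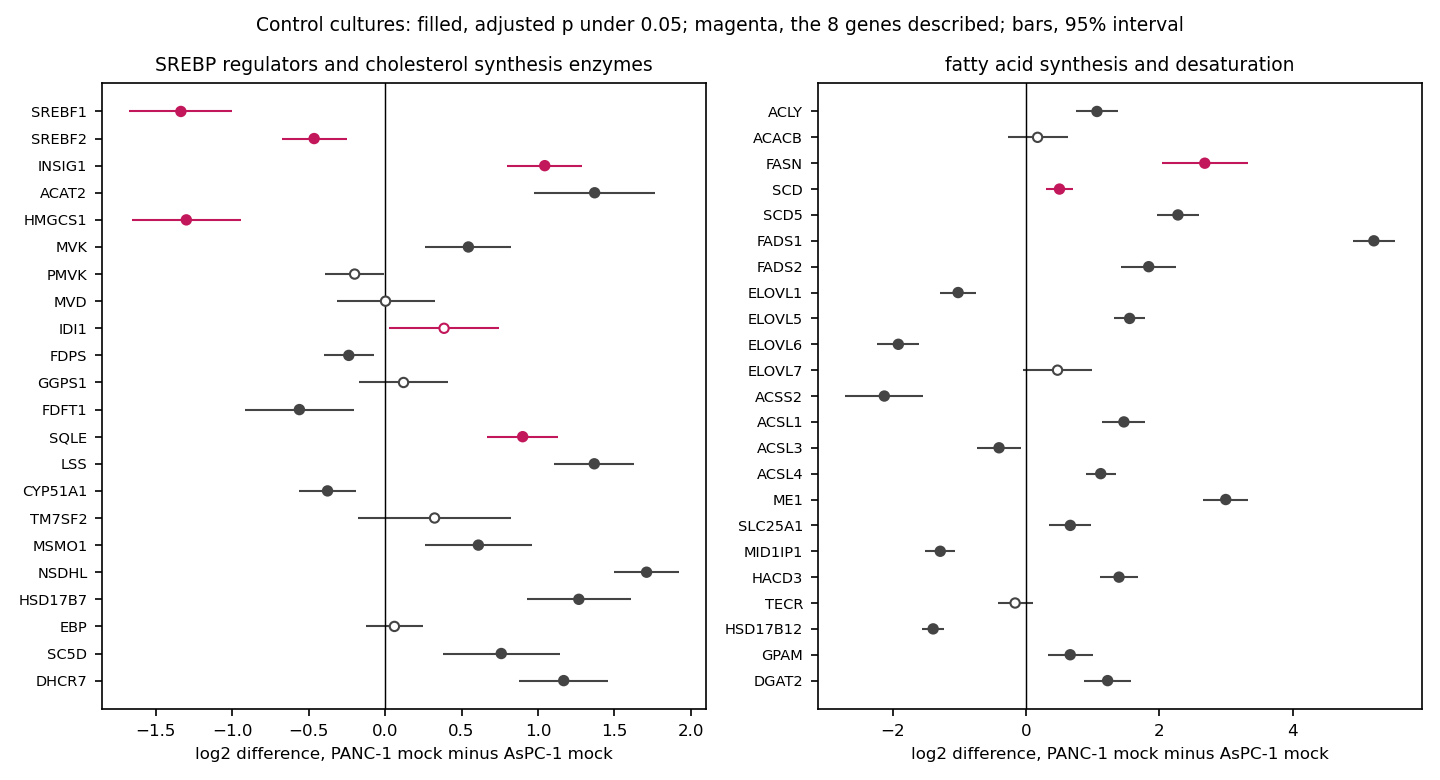
Log2 difference between mock cultures, PANC-1 minus AsPC-1, on the log2(TPM + 1) scale (horizontal axes) for SREBP regulators, most of the cholesterol synthesis enzymes in pathway order and fatty acid genes; points are estimates from 2 libraries a line, bars are 95% intervals, filled points have a limma adjusted p under 0.05 and magenta marks the 8 genes. FASN at 2.68 and SREBF1 at -1.34 are the extremes of the 8.

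Against mock in AsPC-1, TAp63 left 0 of the 8 genes called by limma, where 0.637% of all tested genes were called, and 2 of the 8 had an unadjusted p under 0.05. Those were HMGCS1, with a positive estimate, and SQLE, with a negative one. Among all tested genes, 2233 of 14767 had an unadjusted p under 0.05. The median log2 fold change of the 8 was -0.069, beside -0.076 for all genes.

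HMGCS1 stood at 150 and 149 TPM with TAp63, above both mock libraries at 88.2 and 121 TPM. Its log2 fold change was 0.53 (95% interval 0.17 to 0.88, limma adjusted p 0.182). SQLE stood at 24.4 and 25.9 TPM, below both mock libraries, with a log2 fold change of -0.38 (95% interval -0.61 to -0.15, limma adjusted p 0.150). FASN was at 8.11 and 12.4 TPM, also below both mock libraries, with -0.55 (95% interval -1.20 to 0.096), an interval that reaches 0. SCD was at 227 and 224 TPM, below mock at 265 and 248 TPM, with -0.18 (95% interval -0.39 to 0.023).

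The regulators lay close to mock with TAp63. SREBF1 was at 143 and 168 TPM and SREBF2 at 43.1 and 45.8 TPM, both overlapping mock, with log2 fold changes of -0.072 and -0.031. INSIG1 was at 24.2 TPM in both libraries (-0.067), and IDI1 at 58.8 and 46.6 TPM (0.18). The signs for SREBF1, SREBF2 and INSIG1 turned positive when each library was centred on its median, at 0.060, 0.10 and 0.064. The 95% intervals of the regulators allowed changes in both directions, from -0.41 to 0.26 for SREBF1, -0.24 to 0.18 for SREBF2 and -0.31 to 0.18 for INSIG1.

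With deltaNp63 in AsPC-1, SQLE and SCD fell, and these 2 of the 8 genes were the only ones called, where 7.14% of all tested genes were called, 0.637% higher and 6.51% lower. SQLE was at 21.5 and 24.3 TPM against 34.3 and 31.8 TPM with mock (log2 fold change -0.51, SE 0.104, limma adjusted p 0.0298). SCD was at 181 and 203 TPM against 265 and 248 TPM (log2 fold change -0.42, SE 0.0921, limma adjusted p 0.0366). In neither gene did the groups overlap. The median log2 fold change of the 8 was -0.34, beside -0.12 for all genes, and 6 of the 8 had an unadjusted p under 0.05. Among all tested genes, 4383 of 14767 had such a p. In these bulk samples, fewer cells of a kind and less RNA per cell cannot be told apart. CD68, the 1 immune marker above 1 TPM, fell in the same comparison, from 115 and 126 TPM to 91.9 and 90.8 TPM (limma adjusted p 0.0362), while PTPRC, CD3E and MS4A1 were listed at 0.0102 TPM or less in AsPC-1 and CD14 at 0 in both mock libraries and at 0 and 0.156 TPM with deltaNp63. The part of CD68-expressing cells in the result was not tested.

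These 2 calls were lost under some choices of libraries and scaling. Of the 8 genes, 0 were called without AsPC-1 deltaNp63 replicate 1, without AsPC-1 mock replicate 1 or without AsPC-1 mock replicate 2, and 5 were called without AsPC-1 deltaNp63 replicate 2. Without deltaNp63 replicate 1, SQLE stood at -0.43 (limma adjusted p 0.145) and SCD at -0.33 (limma adjusted p 0.172). Without mock replicate 1 or 2, SQLE stood at -0.46 or -0.56 (limma adjusted p 0.155 or 0.0859) and SCD at -0.37 or -0.46 (limma adjusted p 0.166 or 0.0996), so the folds changed little there. Each of these fits leaves 1 library in a group, which is assumed to vary like the other groups. Centring each library on its median moved every gene in this comparison up by 0.21, so relative to it SQLE stood at -0.30 (limma adjusted p 0.0821) and SCD at -0.21 (limma adjusted p 0.164).

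HMGCS1 had the opposite sign. With deltaNp63 it was at 183 and 133 TPM against 88.2 and 121 TPM with mock, with no overlap and a log2 fold change of 0.59 (95% interval 0.24 to 0.95) that missed the threshold (limma adjusted p 0.0530). It passed after median centring (0.80, limma adjusted p 0.0473), when genes with means under 5 TPM were left out (limma adjusted p 0.0327) and without deltaNp63 replicate 2 (0.82, limma adjusted p 0.00517), and without deltaNp63 replicate 1 it stood at 0.37 (limma adjusted p 0.282). IDI1, the next member of that branch, was at 61.5 and 51.3 TPM against 50.8 and 42.0 TPM, with 0.28 (95% interval -0.086 to 0.64, limma adjusted p 0.288). Without deltaNp63 replicate 1 it stood at 0.15.

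FASN had the largest estimate of the 8 and the widest interval. It was at 4.75 and 11.1 TPM with deltaNp63 against 16.3 and 14.2 TPM with mock, below mock in both libraries, with a log2 fold change of -0.96 (95% interval -1.60 to -0.31, limma adjusted p 0.0674). The lower value came from replicate 1. Without that library the estimate was -0.42 (limma adjusted p 0.328), and without replicate 2 it was -1.50 (limma adjusted p 0.00138).

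Of the regulators, SREBF1 was at 103 and 138 TPM with deltaNp63 against 151 and 177 TPM with mock, and SREBF2 at 36.2 and 39.4 TPM against 42.2 and 48.8 TPM. Both lay below mock without overlap, and neither was called, at -0.45 (limma adjusted p 0.0868) and -0.26 (limma adjusted p 0.109). Without deltaNp63 replicate 2 SREBF1 passed, at -0.66 (limma adjusted p 0.0110), and without replicate 1 it stood at -0.24 (limma adjusted p 0.461). INSIG1 was at 22.3 and 22.5 TPM against 25.4 and 25.3 TPM, a narrow spread. Its difference of -0.17 (95% interval -0.42 to 0.074) was small and became 0.036 after median centring. The interval also reflects the wider spread in PANC-1, such as 57.3 and 49.7 TPM with mock. Without deltaNp63 replicate 1, SREBF2 stood at -0.20 and INSIG1 at -0.17.

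**Figure D3:**
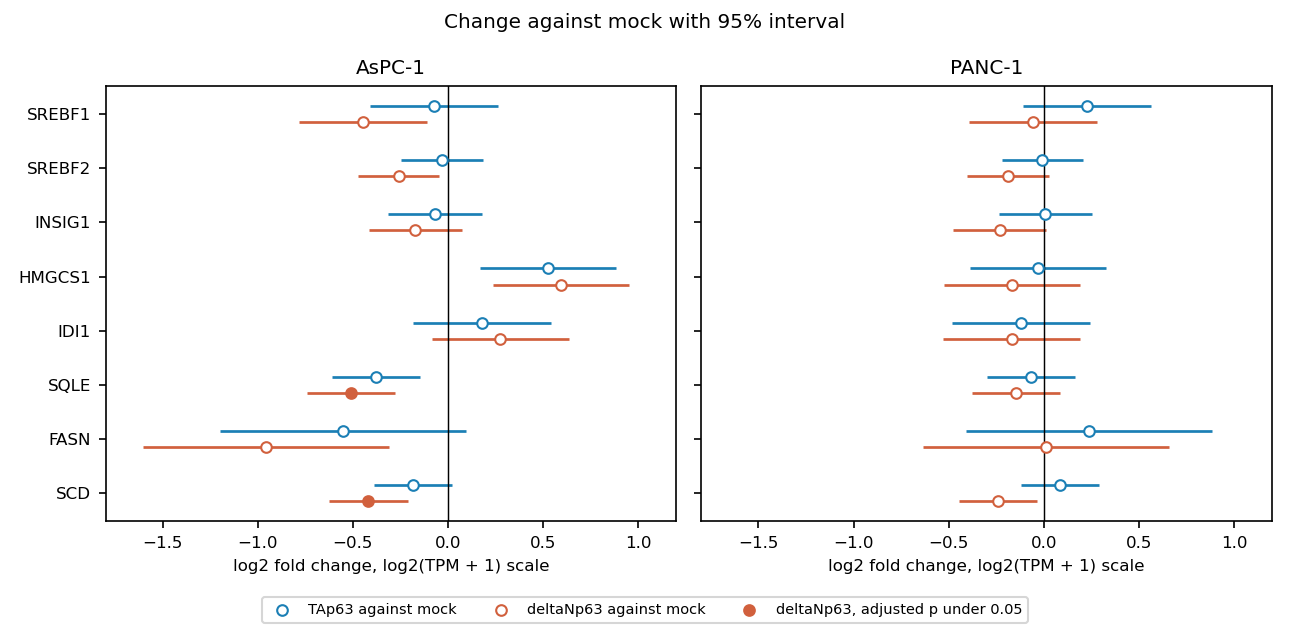
Log2 fold change against mock on the log2(TPM + 1) scale (horizontal axes) for the 8 genes in each line; points are estimates from 2 libraries a group, bars are 95% intervals, and filled points have a limma adjusted p under 0.05. SQLE at -0.51 and SCD at -0.42 with deltaNp63 in AsPC-1 are the filled points, and HMGCS1 lies right of 0 with both constructs in AsPC-1.

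The contrast between HMGCS1 and SQLE can be read within a library, where scaling has no effect. The ratio of their TPM was 2.58 and 3.79 in AsPC-1 mock, 6.13 and 5.73 with TAp63 and 8.52 and 5.48 with deltaNp63. All 4 construct libraries were thus above both mock libraries. With 2 libraries a group the exact permutation test, two-sided, cannot go below 0.333, which is the p of either construct against mock, and the ratio was chosen after the values had been seen. In PANC-1 the ratio stayed between 0.627 and 0.734 in all 6 libraries.

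TAp63 and deltaNp63 were also compared with each other in AsPC-1. TP63 stood higher with deltaNp63 in both lines, so the form of p63 and its transcript level cannot be told apart. By limma 0 of the 8 genes were called, where 0.0203% of all tested genes were called, and 3 of the 8 had an unadjusted p under 0.05. Those were SREBF1 (0.37, 95% interval 0.038 to 0.71), SREBF2 (0.23) and SCD (0.23), all higher with TAp63. Among all tested genes, 1170 of 14767 had an unadjusted p under 0.05. Without deltaNp63 replicate 2, SREBF1 (0.58, limma adjusted p 0.0463) and FASN (0.94, limma adjusted p 0.0274) were called, and without deltaNp63 replicate 1 the FASN difference was -0.13.

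The wider pathway was examined in the same comparisons in AsPC-1. With TAp63, limma called 0 of the 69 pathway genes tested in the 5 lists, and an unadjusted p under 0.05 was found for 6 of 21 cholesterol enzymes, 2 of 10 SREBP control genes, 3 of 10 uptake genes, 0 of 5 LXR and efflux genes and 2 of 23 fatty acid genes. Among all tested genes 0.637% were called there, and 2233 of 14767 had an unadjusted p under 0.05. With deltaNp63 it called 10 of 69, or 14.5%, all lower, where 7.14% of all tested genes were called and 6.51% were lower. Without AsPC-1 deltaNp63 replicate 1 the count was 0, and it was also 0 without either mock replicate, while without deltaNp63 replicate 2 it was 28, with 3 higher and 25 lower. After median centring 1 gene was called, higher, and after quantile normalization 0.

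Of the 21 cholesterol synthesis enzymes, 4 (19%) fell with deltaNp63 in AsPC-1, where 6.51% of all tested genes did. These were SQLE, LSS, the lanosterol synthase (-0.56, limma adjusted p 0.0322), NSDHL, which acts in removing methyl groups from lanosterol (-0.43, limma adjusted p 0.0366), and DHCR7, which makes cholesterol from 7-dehydrocholesterol (-0.57, limma adjusted p 0.0387). The median of the 21 was -0.14, near that of all genes, and 6 had positive estimates.

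Among 23 fatty acid genes tested, 3 (13%) fell with deltaNp63 in AsPC-1, beside 6.51% of all tested genes. They were SCD, ACLY (-0.65, limma adjusted p 0.0361), which makes cytosolic acetyl-CoA from citrate, and DGAT2 (-0.77, limma adjusted p 0.0301), which makes triglycerides. The median of the 23 was -0.19. ACACA, the acetyl-CoA carboxylase, was not analysed here.

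SCARB1 (-0.59, limma adjusted p 0.0391) and TMEM97 (-0.71, limma adjusted p 0.0295) fell among 10 genes of sterol uptake and transport. MBTPS1, the first protease that cuts SREBPs, fell among 10 genes of SREBP control (-0.35, limma adjusted p 0.0445). Of 5 LXR and efflux genes, limma called 0, and 0 had an unadjusted p under 0.05.

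**Figure D4:**
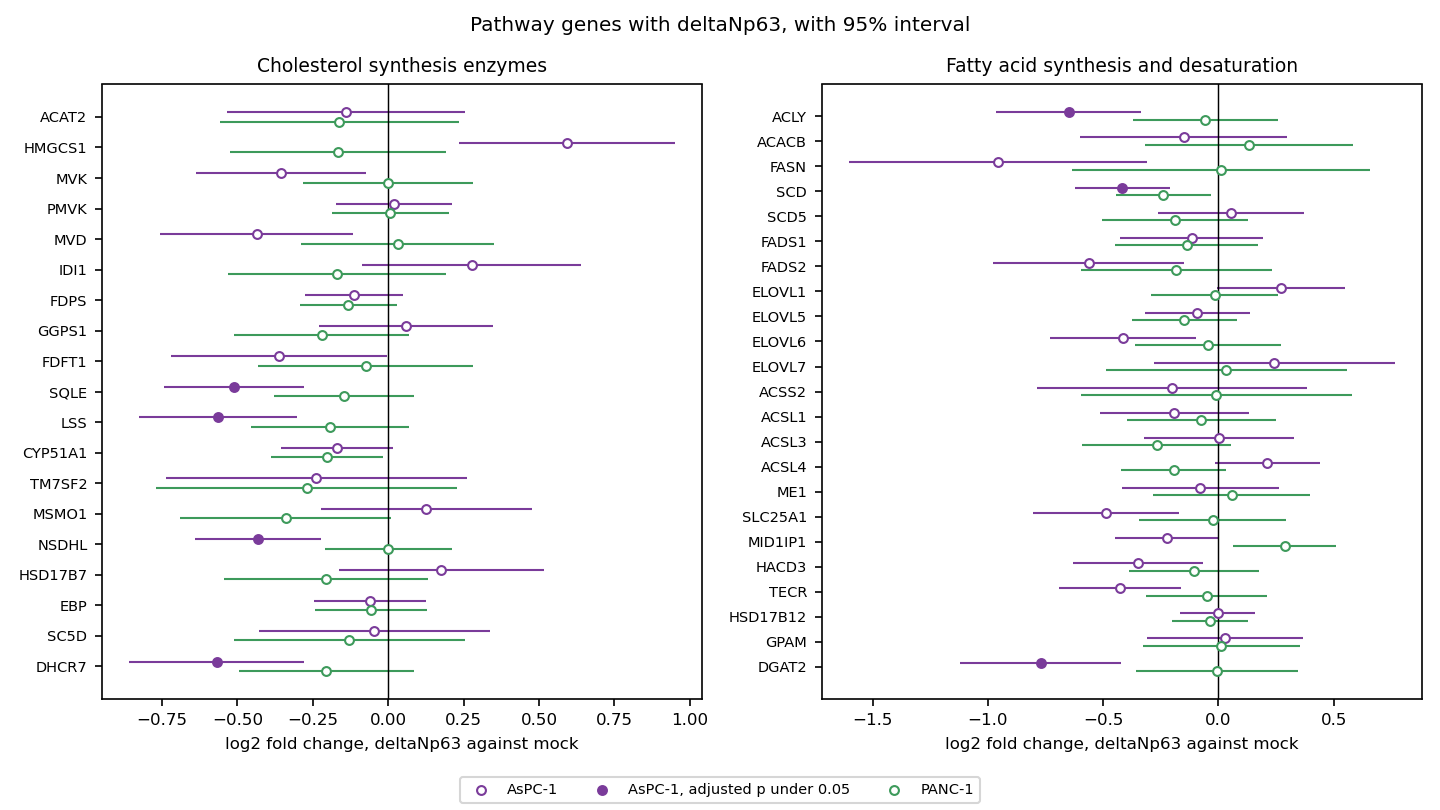
Log2 fold change with deltaNp63 against mock (horizontal axes) for most of the cholesterol synthesis enzymes in pathway order and for fatty acid genes, in AsPC-1 and PANC-1; points are estimates from 2 libraries a group, bars are 95% intervals and filled points have a limma adjusted p under 0.05. The filled points, all in AsPC-1 and all left of 0, are SQLE, LSS, NSDHL, DHCR7, ACLY, SCD and DGAT2.

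In PANC-1 no gene of the 8 passed the test with either construct. By limma 0 of 8 were called with TAp63, where 0.00677% of all tested genes were called, and 0 had an unadjusted p under 0.05. With deltaNp63, 0 of 8 were called, where 0.0406% of all genes were, and 1 had an unadjusted p under 0.05. Over all 14767 tested genes, 503 had such a p with TAp63, 345 with deltaNp63 and 437 between the constructs. The median log2 fold change of the 8 with deltaNp63 was -0.17, beside -0.015 for all genes, and every estimate but that of FASN was negative. TAp63 against deltaNp63 gave 0 of 8, where 0.0271% of all genes were called, and 1 with an unadjusted p under 0.05.

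That gene was SCD in both cases. It was at 391 and 336 TPM with mock, 402 and 368 TPM with TAp63 and 305 and 309 TPM with deltaNp63, so that deltaNp63 lay below the other groups. Its log2 fold change with deltaNp63 was -0.24 (95% interval -0.45 to -0.034, limma adjusted p 1.00), and TAp63 lay above deltaNp63 by 0.32 (95% interval 0.12 to 0.53, limma adjusted p 1.00).

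FASN in PANC-1 was at 126 and 117 TPM with TAp63, above mock at 99.9 and 106 TPM. With deltaNp63 it was at 104 TPM in both libraries. The log2 fold changes were 0.24 (95% interval -0.41 to 0.89) and 0.012 (95% interval -0.63 to 0.66). Both intervals rest on the spread pooled over both lines (SE 0.289), which includes AsPC-1 deltaNp63 at 4.75 and 11.1 TPM. HMGCS1 was at 40.0 and 40.7 TPM with TAp63 and at 35.9 and 37.6 TPM with deltaNp63, against 41.1 and 41.5 TPM with mock, so both constructs lay slightly below mock. Its estimates of -0.032 and -0.17 have 95% intervals whose upper limits are 0.32 and 0.19. SQLE was at 63.9 and 55.5 TPM with TAp63 and at 54.6 and 58.0 TPM with deltaNp63, and both 95% intervals include 0 (-0.30 to 0.16 and -0.38 to 0.084).

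The regulators and IDI1 were not called in PANC-1 either. SREBF1 was at 73.2 and 76.9 TPM with TAp63, above mock, and at 66.2 and 57.3 TPM with deltaNp63, overlapping mock. SREBF2 was at 33.6 and 31.4 TPM with TAp63 and at 28.9 and 28.2 TPM with deltaNp63, the latter below mock at 33.0 and 32.3 TPM (-0.19, 95% interval -0.40 to 0.025). INSIG1 was at 58.5 and 49.3 TPM with TAp63 and at 48.2 and 42.6 TPM with deltaNp63, the latter below mock at 57.3 and 49.7 TPM (-0.23, 95% interval -0.48 to 0.013). IDI1 was at 59.4 and 52.3 TPM and at 58.7 and 49.4 TPM, overlapping mock with both. By limma 0 of the 69 pathway genes were called with either construct in PANC-1. An unadjusted p under 0.05 was found for 1 fatty acid gene with TAp63, and for 1 cholesterol enzyme and 2 fatty acid genes with deltaNp63. Over all 14767 tested genes, it was found for 503 with TAp63 and 345 with deltaNp63.

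Whether a construct acted differently in the 2 lines was tested as an interaction, PANC-1 minus AsPC-1. TP63 stood higher in PANC-1 with each construct, so line and construct level cannot be told apart in it. For TAp63, limma called 0 of the 8 genes, where 0.0745% of all tested genes were called, and 1 had an unadjusted p under 0.05, HMGCS1 at -0.56 (95% interval -1.07 to -0.055). For deltaNp63 it called 0 of 8, where 0.582% of all genes were called. Over all 14767 tested genes, 1540 had an unadjusted p under 0.05 for TAp63 and 2431 for deltaNp63. Of the 8 genes, 3 had such a p for deltaNp63. Those were HMGCS1 at -0.76 (95% interval -1.26 to -0.25, limma adjusted p 0.215), SQLE at 0.36 (95% interval 0.037 to 0.69, limma adjusted p 0.271) and FASN at 0.97 (95% interval 0.054 to 1.88, limma adjusted p 0.284). Without AsPC-1 deltaNp63 replicate 2 the differences for HMGCS1 (-0.99, limma adjusted p 0.0144) and FASN (1.51, limma adjusted p 0.00833) were called. The response of these genes was thus not shown to differ between the lines with all libraries in the fit.

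The deposited transcript rows allow a look below the gene level. The MANE Select transcript, the reference transcript chosen jointly by Ensembl and RefSeq, held at least 98.98% of SQLE and at least 88.5% of IDI1 in every library, and SCD has 1 transcript in the table. For HMGCS1 that transcript, ENST00000325110, held 38.9% to 52.8% in AsPC-1 and 30.2% to 42.1% in PANC-1. A second coding transcript of HMGCS1 that starts farther upstream, ENST00000433297, held 35.1% to 43.6% over all libraries, so neither start dominated. How sequence shared by transcripts was divided is not stated in the sources used here.

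For FASN the coding MANE Select transcript held 73.4% to 88.6% in AsPC-1 and 69.9% to 80.9% in PANC-1. A transcript annotated as retaining an intron, ENST00000578424, held 13.4% to 19.9% in PANC-1 and 4.22% to 21.6% in AsPC-1, the last in deltaNp63 replicate 2.

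SREBF1 has 2 alternative first exons, of which the upstream gives SREBP-1a and the downstream SREBP-1c. In the annotation 3 coding transcripts of the table begin at the upstream start and 1, ENST00000423161, begins 13368 bases downstream, at 17823618. The downstream transcript stood at 5.37 and 7.01 TPM in AsPC-1 mock and at 7.36 and 7.52 TPM in PANC-1 mock. The upstream transcripts stood at 91.1 and 107 TPM in AsPC-1 mock and at 30.8 and 26.5 TPM in PANC-1 mock, so within the coding transcripts the lines did not overlap in the upstream class. Transcripts not annotated as coding made up the rest of the gene's total.

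As a share of coding SREBF1, the downstream start held 3.30% to 8.54% in the 6 AsPC-1 libraries. In PANC-1 it held 17.4% to 22.1% in the mock and TAp63 libraries, and 23.7% and 7.99% in the deltaNp63 libraries. That last pair differed more than any other group, and with it the ranges of the lines overlap. Coding transcripts together held between 52.9% and 67.1% of SREBF1.

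**Figure D5:**
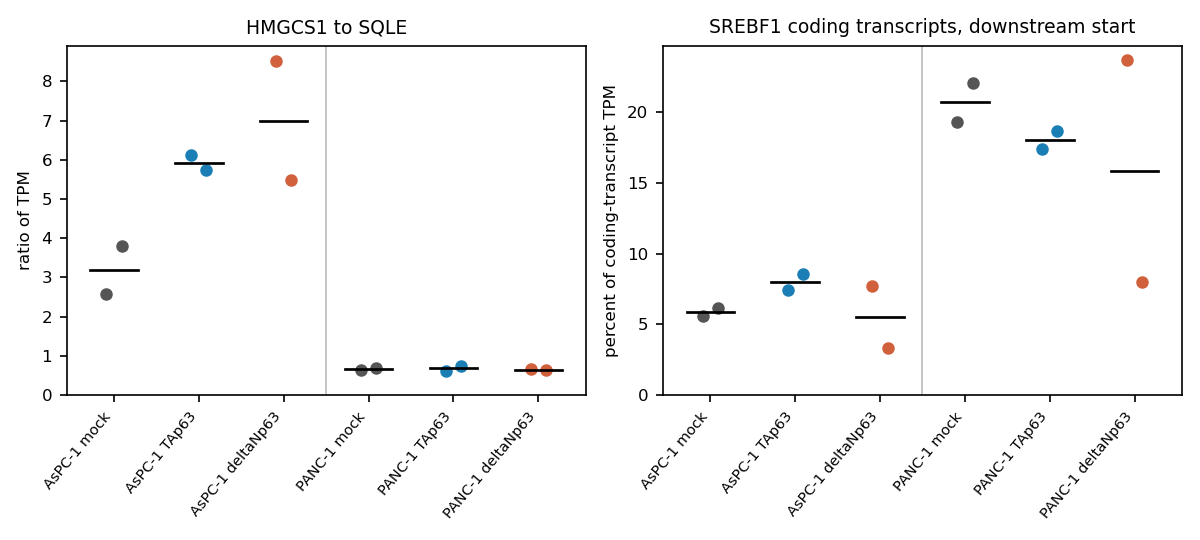
Left, ratio of HMGCS1 to SQLE in TPM; right, percent of coding SREBF1 TPM on the transcript with the downstream start; points are the 12 libraries and bars are group means of 2. The ratio is 2.58 and 3.79 in AsPC-1 mock, 5.48 to 8.52 with either construct in AsPC-1 and at most 0.734 in PANC-1.

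The genes most alike to each of the 8 were sought by the Pearson correlation of log2(TPM + 1), less its mean in the cell line, over the 12 libraries, among 10220 other genes with a mean of at least 5 TPM. These are descriptions: the libraries share their groups and their scaling, and many genes reach high values with so few libraries. AsPC-1 deltaNp63 replicate 1, with the lowest FASN (4.75 TPM) and highest HMGCS1 (183 TPM) of its line, is among them. How far the correlations rest on that library was not tested. The highest for FASN were REPIN1 (r = 0.991), MRPL4 and FARSA, and for HMGCS1 OSBP2 (r = 0.973), DTD1 and CTNNB1. SQLE was most like NR2F2 (r = 0.964), MESD and TGFBR2, and SCD most like LOXL4 (r = 0.942), HLTF and HOXC13. SREBF1 was most like REEP4 (r = 0.956), CAPNS1 and EPS8L2, and SREBF2 most like GLYR1 (r = 0.957), TMEM150A and PABPN1. IDI1 was most like SLC66A3 (r = 0.953), VPS29 and ABCD3, and INSIG1 most like NAP1L4 (r = 0.878), AVL9 and CREG1. None of these 24 genes is in the 5 pathway lists.

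SREBF1 overlaps RAI1 on the other strand, and HMGCS1, IDI1 and SREBF2 each overlap an antisense gene. The library kit keeps strand, per the labels, but whether the strand was used in assigning reads is not stated in the sources used here, and the share of their values that belongs to those genes was not tested.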

How the data were processed

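RNA from 12 libraries of AsPC-1 and PANC-1 cells was extracted with a column kit and made into stranded poly(A) libraries, per the labels' protocols. The authors deposited TPM values for 153329 Ensembl transcripts, and each column sums to 1000000. The program, build and annotation behind them are not given in the sources used here. Columns were matched to samples by title. Transcripts were paired with genes through GENCODE v44 (GRCh38), which covered 139819 transcripts (91.2%) and 89.6% to 90.5% of the TPM of a library, and TPM was summed over 39099 genes. Depth is unknown from TPM, and replicates set the precision.

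The 14767 genes that reached 1 TPM in 2 or more libraries were analysed as log2(TPM + 1), a scale that understates changes of low genes. Limma 3.58.1 in R 4.3.3 fitted a mean for each of 6 groups, with eBayes and trend, and 9 contrasts were read from it. P-values are two-sided, adjusted by Benjamini-Hochberg within a contrast, with a threshold of 0.05, and intervals are 95% intervals from the same fit. The fit was tested on simulated data. The exact permutation test used scipy 1.17.1.

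The 8 genes and the lists were chosen with earlier results of these data known. Named from the lists were up to 4 called genes per list, direction and contrast, and the 3 genes most like each of the 8, and some genes that this rule names are not reported here. The 5 pathway lists hold cholesterol enzymes, SREBP control, sterol uptake, LXR and efflux, and fatty acid genes, and 4 marker lists cover epithelial, fibroblast, immune and endothelial cells. Of the 5 endothelial markers 4 were found among the genes, and 0 of these reached 1 TPM. Alternatives were limma without trend, quantile normalization, median centring, no filter, a mean of at least 5 TPM, a pseudocount of 0.1, models of fewer libraries, a replicate block and leaving out each library. Counts over the pathway lists under these settings were added after seeing the data.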

Additional observations from a re-analysis of the deposited data

How the results depend on the processing

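With 2 libraries a group, the precision is limited by the replicates and the depth is unknown. In AsPC-1 with deltaNp63 against mock, 2 of the 8 genes were called. The count was 1 by limma without trend and 1 after median centring (HMGCS1 in place of SQLE and SCD), 0 after quantile normalization, without the filter on low values, with only the groups compared or with only the 6 libraries of the line, 4 with a mean of at least 5 TPM (HMGCS1 and FASN added) and 5 with the replicate block (SREBF1, IDI1 and FASN added). Leaving out 1 library gave 0 to 5 for that comparison, 0 to 2 for TAp63 against deltaNp63 in AsPC-1 and 0 to 2 for the difference between lines with deltaNp63. The causes were not tested. The pairing behind the replicate block rests on a shared number alone: deviations of same-numbered libraries correlated across genes between -0.094 and 0.293, with 2 numbers only. In the mock comparison of the lines 7 or 8 genes were called under every setting run, and with the replicate block IDI1 was added (adjusted p 0.00141).

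Of 976 values of the 8 genes under alternatives, 43 changed sign, 0 of them called in either fit. With quantile normalization and median centring, in that order, these were SREBF2 (0.053, 0.10) and INSIG1 (0.038, 0.064) for TAp63 in AsPC-1, and for the difference between lines SREBF2 (-0.065, -0.12) and INSIG1 (-0.029, -0.064) with TAp63 and SREBF2 (-0.055, -0.12) with deltaNp63. Median centring alone turned SREBF1 for TAp63 (0.060) and INSIG1 for deltaNp63 (0.036) in AsPC-1, INSIG1 for TAp63 in PANC-1 (-0.00021) and SCD in the difference with deltaNp63 (-0.0085).

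When each library was left out in turn, values that changed sign ranged as follows. For TAp63 against mock in AsPC-1 the ranges were SREBF1 -0.19 to 0.045 and SREBF2 -0.13 to 0.071. For TAp63 against deltaNp63 in AsPC-1 the ranges were HMGCS1 -0.29 to 0.16, IDI1 -0.26 to 0.065 and FASN -0.13 to 0.94. For TAp63 against mock in PANC-1 the ranges were SREBF2 -0.056 to 0.039, INSIG1 -0.11 to 0.13, IDI1 -0.26 to 0.021, SQLE -0.17 to 0.032 and SCD -0.025 to 0.19. For deltaNp63 against mock in PANC-1 the ranges were SREBF1 -0.16 to 0.048 and FASN -0.029 to 0.053. For TAp63 against deltaNp63 in PANC-1 the ranges were IDI1 -0.073 to 0.17 and SQLE -0.021 to 0.18. For the difference between lines with TAp63 the ranges were SREBF2 -0.080 to 0.12 and INSIG1 -0.045 to 0.20. For the difference between lines with deltaNp63 the ranges were SREBF2 -0.032 to 0.17 and INSIG1 -0.16 to 0.041.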
